A study of Mus musculus with 203 samples.

Results

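The genes described here are 7 genes of the lipoxygenase and leukotriene pathway, out of 25094 genes listed for RNA-seq of the mouse macrophage line RAW264.7 (RAW cells). They were chosen by gene symbol: Alox5, Alox5ap, Alox15, Lta4h, Ltc4s, Cysltr1 and Ltb4r1. All 7 were found in the RAW table and all 7 are also listed among the 16478 genes of a second table, from macrophages grown from bone marrow (BMDMs) of WT mice and of mice lacking Gps2 in macrophages (Gps2 KO). That second table holds the authors' own comparisons and no value per library, so levels in BMDMs were not analysed here. The RAW experiment compared 4 groups of 4 libraries each. In the shGFP groups the cells stably carried a lentiviral control hairpin against GFP, and in the shKDM1A groups 1 hairpin against Kdm1a, the gene of the histone demethylase KDM1A (LSD1). All cells of both lines had been selected with puromycin, so the controls share the vector and the drug. With 1 hairpin against Kdm1a, lower Kdm1a cannot be told apart from other effects of that hairpin or other differences between the lines. One group of each line was left without IL4 and the other received 20 ng/ml IL4 for 6 h. The totals stated for the 16 libraries were between 17554721 and 27782568 tags, the read units of the authors' counting software.

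Leukotrienes are lipid mediators made from arachidonic acid, a fatty acid that phospholipases release from membranes. ALOX5 (5-lipoxygenase) oxidises it to leukotriene A4 with the help of FLAP, the membrane protein encoded by Alox5ap that presents arachidonic acid to the enzyme. LTA4H hydrolyses leukotriene A4 to leukotriene B4, which attracts neutrophils and acts on the receptor encoded by Ltb4r1, and LTC4S couples leukotriene A4 to glutathione to give the cysteinyl leukotrienes, which act on CYSLTR1. Macrophages are a known source of both kinds of leukotriene. ALOX15 oxidises the same fatty acid at another position and is known as an IL4-induced gene of several macrophage populations.

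Values are the deposited log2 values, whose transformation is not named. The median SD within groups was 0.015 for genes with a mean of 1 to 2 and 0.063 for those of 6 to 8, where counting error alone would give low genes the larger spread, so the scale appears to be compressed for weakly expressed genes and their differences may be understated. A difference is a difference of group means on this scale, given with its standard error (SE) from a limma model of all 16 libraries, and it was called when the p-value, adjusted by Benjamini-Hochberg over all genes tested, was under 0.05. Of the 7 genes, 6 passed the filter (1 or more in 4 or more libraries) and were among the 12905 genes tested, and Alox15 did not. The targeted gene was lower in the shKDM1A libraries: Kdm1a had a mean of 11.18 ± 0.044 (SD, n = 4) in shGFP, 11.10 ± 0.028 in shGFP with IL4, 10.30 ± 0.053 in shKDM1A and 10.32 ± 0.029 in shKDM1A with IL4, with no overlap between the lines. Defining macrophage genes were present, with Lyz2 (lysozyme) the highest at a mean of 16.90 in shGFP cells, and 7 of 8 macrophage genes passed the filter. Mertk did not. No gene of the mast cell, eosinophil, lymphocyte or fibroblast and epithelial lists passed it, and all 6 mast cell genes were listed at 0 in every library. The highest eosinophil gene was Ccr3, with a mean of 0.60, and the highest neutrophil gene S100a8, with 1.24. The macrophage genes themselves moved, 4 of 7 being called for IL4 in shGFP cells (2 higher, 2 lower), 5 for IL4 in shKDM1A cells (3 higher, 2 lower) and all 7 in both shKDM1A comparisons (5 higher, 2 lower each). Of all genes tested, 26.9%, 27.1%, 38.2% and 40.7% were called in these comparisons. For IL4 in shGFP cells Adgre1 differed by 1.24 and Lyz2 by −0.53, while the mean log2 value over all 8 ranged from 11.10 to 11.13 across shGFP libraries, 11.19 to 11.22 with IL4, 11.17 to 11.19 across shKDM1A libraries and 11.30 to 11.32 with IL4. Their part in the results below was not tested. In the shKDM1A group with IL4, replicates 1 and 3 stood apart from replicates 2 and 4 on the third principal component (6.68 and 5.33 against −1.80 and −1.27), and in the shGFP group without IL4 replicates 1 and 4 from replicates 2 and 3 (3.20 and 5.42 against 0.49 and 0.27). The tests of members and neighbouring genes and the counts over all pathway genes were therefore also made with each pair alone in its group. Calls and counts that changed are given where they stand.

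Alox5 and Alox5ap, which act on the same step, changed in opposite directions in all 4 comparisons, and they were the members with the widest range. Alox5 fell with IL4 and was lower with shKDM1A, and Alox5ap rose with IL4 and was higher with shKDM1A. Ltb4r1 rose with IL4 in shGFP cells, Ltb4r1 and Ltc4s were lower with shKDM1A in the presence of IL4, and no difference was called for Cysltr1. A rise of Ltc4s with IL4 in shGFP cells and slightly lower Lta4h with shKDM1A were also called, but these calls were lost with some libraries left out.

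**Figure D1:**
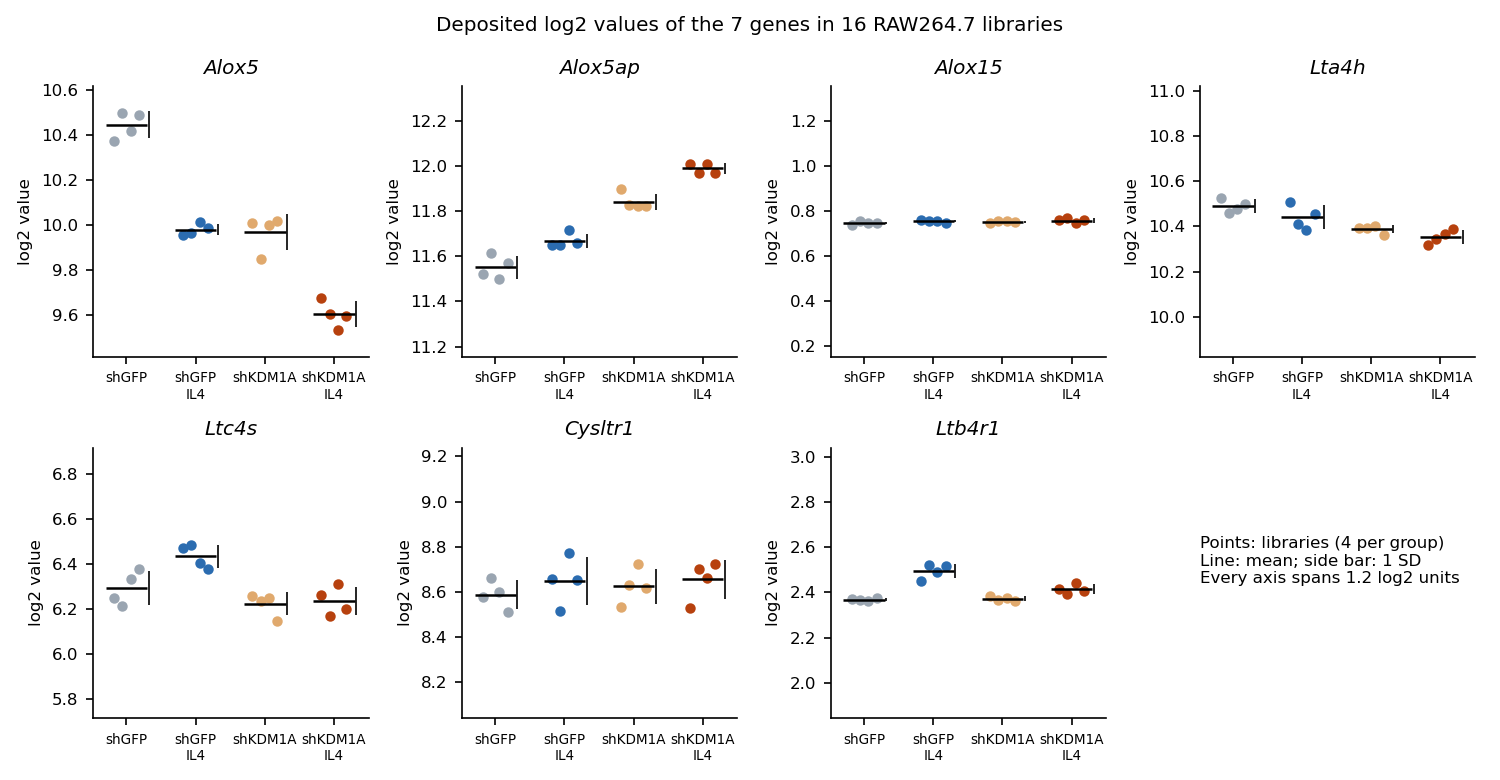
Deposited log2 values (y axis, 1.2 log2 units in every panel) of the 7 genes in the 4 groups (x axis), with 1 point per library, a line at the mean and a side bar of 1 SD. Alox5 steps down and Alox5ap steps up from shGFP without IL4 to shKDM1A with IL4, and Alox15 stays between 0.74 and 0.77.

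Alox5 lies on the minus strand of chr6:116360089-116411196 (mm9), with 14 exons in its longest annotated transcript and 2811 exonic bases in the RAW table. In shGFP libraries its log2 value was 10.37, 10.50, 10.42 and 10.49, and with IL4 it was 9.96, 9.96, 10.01 and 9.99. In shKDM1A libraries it was 10.01, 9.85, 10.00 and 10.02, and with IL4 9.68, 9.60, 9.54 and 9.60. Every library with IL4 thus lay below every library of the same line without it, and every shKDM1A library below every shGFP library of the same treatment. In bulk RNA, fewer expressing cells and less RNA per cell cannot be told apart. IL4 lowered Alox5 in shGFP cells, with a log2 difference of −0.46 (SE 0.039, adjusted p = 1.35e-07), which is −27.5% on the linear scale, and in shKDM1A cells, with −0.36 (SE 0.039, adjusted p = 2.62e-06). Alox5 was lower with the hairpin against Kdm1a, without IL4 (−0.48, SE 0.039, adjusted p = 5.78e-08) and with IL4 (−0.38, SE 0.039, adjusted p = 1.01e-06). Its means were thus 9.98 in shGFP cells with IL4 and 9.97 in shKDM1A cells without IL4. In shKDM1A cells with IL4 the mean was 9.60. That is a log2 difference of −0.84 from untreated shGFP cells, which was not tested as a comparison of its own.

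The promoter of Alox5 is shown because this gene had the largest change among the members, and those of Ltc4s and Ltb4r1 because both rose with IL4 in shGFP cells. The sequences are the 250 bases before the annotated start, from RefSeq on build GRCm38.p6 (a later build than the mm9 used for the RNA-seq), and 4 of the 7 genes matched this table (Alox5, Lta4h, Ltc4s and Ltb4r1). Capitals mark matches, on either strand, to the ETS or PU.1 core GAGGAA or the GC box GGGCGG, and no match overlapped another. PU.1 is a transcription factor that defines macrophages. The windows are chr6:116461179-116461428 (minus strand) for Alox5, chr11:50238533-50238782 (minus strand) for Ltc4s and chr14:55765712-55765961 (plus strand) for Ltb4r1, each written 5′ to 3′ along its gene.
Alox5: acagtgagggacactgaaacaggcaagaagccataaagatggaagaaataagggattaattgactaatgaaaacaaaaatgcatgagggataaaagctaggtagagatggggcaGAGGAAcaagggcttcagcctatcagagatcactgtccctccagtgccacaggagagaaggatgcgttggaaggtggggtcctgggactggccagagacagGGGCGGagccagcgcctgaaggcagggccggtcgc
Ltc4s: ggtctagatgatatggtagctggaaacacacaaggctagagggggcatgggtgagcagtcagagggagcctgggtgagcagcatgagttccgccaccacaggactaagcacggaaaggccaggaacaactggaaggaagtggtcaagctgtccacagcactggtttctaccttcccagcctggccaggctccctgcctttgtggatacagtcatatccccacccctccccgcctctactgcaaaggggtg
Ltb4r1: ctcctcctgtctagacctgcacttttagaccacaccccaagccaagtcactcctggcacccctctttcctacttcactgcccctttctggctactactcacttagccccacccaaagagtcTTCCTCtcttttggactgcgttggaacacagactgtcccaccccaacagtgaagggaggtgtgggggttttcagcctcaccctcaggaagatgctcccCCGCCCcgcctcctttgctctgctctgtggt

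Alox5 held 1 GAGGAA, at 136 to 131 bases before the start, and 1 GC box. Ltb4r1 also held 1 of each, both on the opposite strand. Ltc4s held no match to any motif searched, and Lta4h, not printed, held 1 GAGGAA on the opposite strand. Among all 32851 promoter windows of the table, 23.3% held GAGGAA and 32.7% a GC box. The 3 other motifs searched were the STAT6-type site (TTC and GAA separated by 4 bases, in 5.85% of windows), the STAT-type site (TTC and GAA separated by 3 bases, 7.02%) and AP-1 (TGANTCA, 6.75%), and none of the 4 members' windows held these letters. A match is a description of the letters in this window and no evidence of binding.

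Alox5ap lies on the plus strand of chr5:150076580-150099729 (mm9), with 1007 exonic bases. Its log2 value was 11.52, 11.61, 11.50 and 11.57 in shGFP libraries, and 11.65, 11.65, 11.71 and 11.66 with IL4. In shKDM1A libraries it was 11.90, 11.83, 11.82 and 11.82, and with IL4 12.01, 11.97, 12.01 and 11.97. All 4 groups were separated from each other without overlap, in the reverse order of the Alox5 means. IL4 raised Alox5ap by 0.12 (SE 0.027, adjusted p = 0.00366) in shGFP cells, an increase of 8.45%, and by 0.15 (SE 0.027, adjusted p = 0.00054) in shKDM1A cells. The difference between the lines was larger than that, at 0.29 (SE 0.027, adjusted p = 2.28e-07) without IL4 and 0.32 (SE 0.027, adjusted p = 6.90e-08) with IL4, an increase of 24.9%.

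Set against each other per kilobase of exon within each library, the Alox5ap level exceeded the Alox5 level by 2.59 ± 0.033 log2 units (SD, n = 4) in shGFP cells, 3.17 ± 0.014 with IL4, 3.35 ± 0.079 in shKDM1A cells and 3.87 ± 0.061 with IL4. On the linear scale these means correspond to Alox5ap levels 6.01, 8.99, 10.2 and 14.6 times those of Alox5. In this order, every library of a group was above every library of the group before it. These are RNA levels, and protein was not measured in these libraries.

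Alox15, on the minus strand of chr11:70157649-70165533 (mm9), was low. Its log2 value ranged from 0.74 to 0.75 in shGFP, 0.75 to 0.76 in shGFP with IL4, 0.75 to 0.76 in shKDM1A and 0.74 to 0.77 in shKDM1A with IL4, and all 4 groups overlapped. It did not pass the filter and is in no comparison. In a fit of 16606 genes without the filter its differences were between 0.0025 and 0.0086 (SE 0.0048), with adjusted p of 0.272 to 0.806. Among the 5 other lipoxygenase genes, 4 also failed the filter (Alox12, Alox12b, Alox8 and Alox12e, the last listed at 0 in every library). The fifth, Aloxe3, an epidermis-type lipoxygenase, passed it with a mean of 1.53 in shGFP cells and was called in none of the 4 comparisons. Alox5 was thus the only lipoxygenase gene of these 7 with a mean above 2 in shGFP cells.

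Downstream of leukotriene A4, Lta4h was the more abundant of the enzyme genes and the steadier. Lta4h lies on the plus strand of chr10:92916141-92947641 (mm9). Its log2 value was 10.53, 10.46, 10.48 and 10.50 in shGFP libraries, 10.51, 10.41, 10.39 and 10.46 with IL4, 10.39, 10.39, 10.40 and 10.36 in shKDM1A libraries, and 10.32, 10.34, 10.37 and 10.39 with IL4. The shKDM1A libraries lay below all shGFP libraries without IL4, while with IL4 the lines overlapped at 10.39. The difference between lines was −0.10 (SE 0.026, adjusted p = 0.00457) without IL4 and −0.09 (SE 0.026, adjusted p = 0.0139) with IL4, or −6.90% and −5.78%. The call without IL4 did not hold with shGFP replicates 2 and 3 only (−0.08, adjusted p = 0.0722). The call with IL4 did not hold without shGFP IL4 replicate 1 (adjusted p = 0.0521), in a fit of those 2 groups alone (adjusted p = 0.0504) or with shKDM1A IL4 replicates 2 and 4 only (adjusted p = 0.0960). For IL4 itself the differences were −0.05 (95% interval −0.10 to 0.0048) in shGFP cells and −0.03 (−0.09 to 0.02) in shKDM1A cells, and neither was called. Without shGFP IL4 replicate 1 the former was (−0.07, adjusted p = 0.0414).

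Ltc4s lies on the minus strand of chr11:50049963-50052034 (mm9), where the annotation also has a noncoding gene on the opposite strand, and reads of the strands were not separated in the counting. Its RAW values are listed under a noncoding transcript of the gene with 638 exonic bases, while for BMDMs a coding transcript of 653 bases is listed. The log2 value of Ltc4s was 6.25, 6.22, 6.33 and 6.38 in shGFP libraries and 6.47, 6.48, 6.41 and 6.38 with IL4. In shKDM1A libraries it was 6.26, 6.24, 6.25 and 6.15, and with IL4 6.26, 6.17, 6.31 and 6.20. The highest values were those of shGFP cells with IL4, which touched the untreated shGFP libraries at 6.38 and did not overlap the shKDM1A libraries with IL4. IL4 raised Ltc4s by 0.14 (SE 0.040, adjusted p = 0.0156) in shGFP cells. This call was lost without shGFP replicate 1 (adjusted p = 0.0509), without shGFP replicate 2 (0.0557) or without shGFP IL4 replicate 2 (0.0526), and with shGFP replicates 1 and 4 only (adjusted p = 0.0908). In shKDM1A cells the IL4 difference was 0.01 (95% interval −0.07 to 0.10, adjusted p = 0.860). Ltc4s was lower with shKDM1A than with shGFP in the presence of IL4 (−0.20, SE 0.040, adjusted p = 0.000875), and the difference without IL4 was −0.07 (95% interval −0.16 to 0.01, adjusted p = 0.185).

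The receptors differed in level. Cysltr1, on the minus strand of chrX:103771848-103799018 (mm9), had log2 values of 8.58, 8.66, 8.60 and 8.51 in shGFP libraries, 8.66, 8.51, 8.77 and 8.65 with IL4, 8.53, 8.63, 8.72 and 8.62 in shKDM1A libraries, and 8.53, 8.70, 8.66 and 8.73 with IL4. All 4 groups overlapped. Its differences were 0.06 (95% interval −0.05 to 0.18) for IL4 in shGFP cells, 0.03 (−0.09 to 0.14) for IL4 in shKDM1A cells, 0.04 (−0.08 to 0.15) for the hairpin without IL4 and 0.0068 (−0.11 to 0.12) with it. None was called, and the largest difference inside these 4 intervals was 0.18. Cysltr1 shares 20494 bases of its span with Gm5127 on the opposite strand, whose mean was 3.52 in shGFP cells and which was called in none of the 4 comparisons either.

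Ltb4r1, on the plus strand of chr14:56384799-56387329 (mm9), was low, with log2 values of 2.37, 2.37, 2.36 and 2.38 in shGFP libraries and 2.45, 2.52, 2.49 and 2.52 with IL4. In shKDM1A libraries it was 2.39, 2.37, 2.37 and 2.36, and with IL4 2.42, 2.39, 2.44 and 2.41. The shGFP libraries with IL4 lay above all 12 others. IL4 raised Ltb4r1 by 0.13 (SE 0.018, adjusted p = 7.14e-05) in shGFP cells, and the IL4 difference in shKDM1A cells was 0.04 (SE 0.018, adjusted p = 0.109). With IL4, Ltb4r1 was lower in shKDM1A than in shGFP cells (−0.08, SE 0.018, adjusted p = 0.0025), and without IL4 the difference was 0.0040 (95% interval −0.04 to 0.04). Genes at this level (means of 2 to 3) had a median SD within groups of 0.021, and the linear size of the change is not known.

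**Figure D2:**
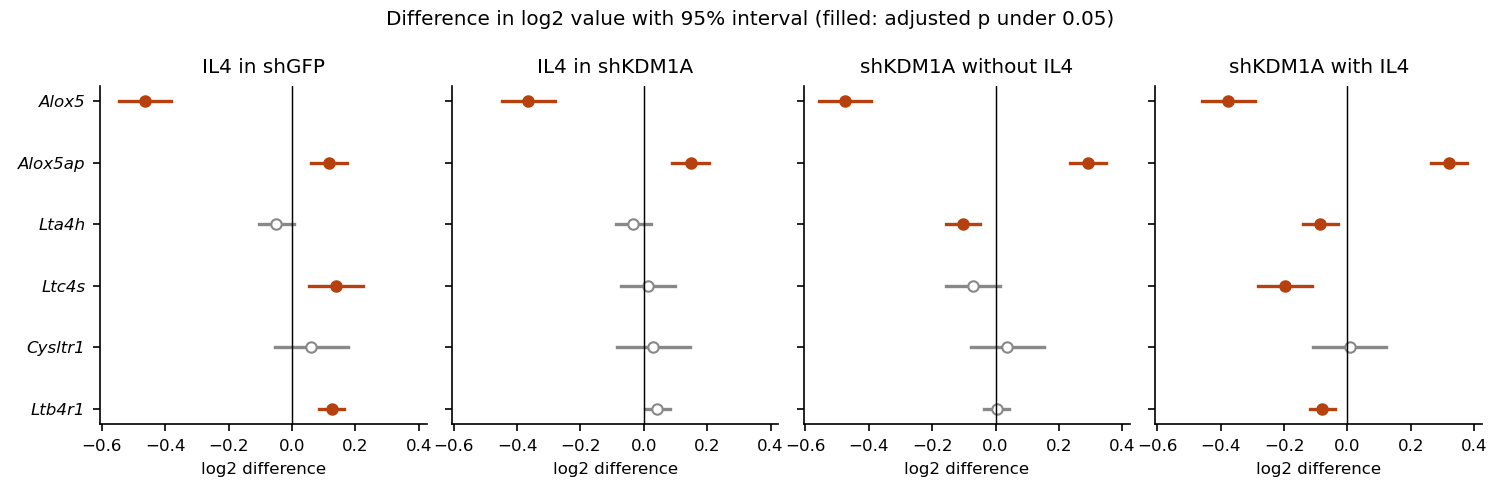
Difference in log2 value (x axis) of the 6 genes tested (y axis), with the 95% interval as a line, in each of the 4 comparisons. Filled points are called at an adjusted p under 0.05; Alox5 is lower and Alox5ap higher in all 4 panels, and every Cysltr1 interval includes 0.

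Counted together, 4 of the 6 genes tested were called for IL4 in shGFP cells, 3 higher (Alox5ap, Ltc4s and Ltb4r1) and 1 lower (Alox5), where 26.9% of all genes tested were called (13.1% higher, 13.7% lower). For IL4 in shKDM1A cells 2 were called, Alox5ap higher and Alox5 lower, against 27.1% of all genes (13.6% higher, 13.5% lower). The hairpin without IL4 gave 3 calls, Alox5ap higher and Alox5 and Lta4h lower, against 38.2% of all genes (19.7% higher, 18.4% lower). With IL4 it gave 5 calls, Alox5ap higher and Alox5, Lta4h, Ltc4s and Ltb4r1 lower, against 40.7% (20.9% higher, 19.8% lower). The median difference over the 6 genes was 0.09, 0.02, −0.03 and −0.08 in these comparisons, and over all genes tested it was within 0.01 of 0 in each. Comparisons that share a group share its libraries, so the calls of different comparisons are not independent. Whether IL4 acted differently in the lines was tested by the interaction, for which 6.13% of all genes were called (3.56% higher, 2.57% lower) and none of the members in limma. At an unadjusted p under 0.05 there were 2, Ltb4r1 (−0.08, SE 0.026, adjusted p = 0.0682) and Ltc4s (−0.13, SE 0.057, adjusted p = 0.198). The interaction of Alox5 was 0.10 (95% interval −0.02 to 0.22) and that of Alox5ap 0.03 (−0.05 to 0.11). The IL4 calls made for Ltc4s and Ltb4r1 in 1 line and not in the other are therefore not shown to differ between the lines in this fit. For Ltb4r1 this depends on the fit, since its interaction passed the threshold without shGFP IL4 replicate 1 (−0.10, adjusted p = 0.0324), without the filter (adjusted p = 0.0354) and with a variance prior that follows the level (adjusted p = 0.0118).

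Per kilobase of exon, the order of the levels in shGFP cells was Alox5ap (a log2 level of 11.54), Lta4h (9.46), Alox5 (8.95), Cysltr1 (7.02), Ltc4s (6.94), Ltb4r1 (1.90) and Alox15 (−0.52). Each was above the next in all 4 libraries except Cysltr1 and Ltc4s, which overlapped and whose order was not resolved. That pair overlapped in every group but shKDM1A without IL4, where Cysltr1 was above Ltc4s in all libraries (7.05 against 6.87), and in shGFP cells with IL4 the means were 7.08 for both. The first 3 places were the same in all 4 groups, while the distance from Lta4h to Alox5 widened from 9.46 against 8.95 in shGFP cells to 9.32 against 8.11 in shKDM1A cells with IL4. Alox5ap exceeded 95.8% of all genes tested in level per kilobase in shGFP cells, and Ltb4r1 7.96%. Length scaling does not alter a difference between groups, since the same amount is taken from every library.

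**Figure D3:**
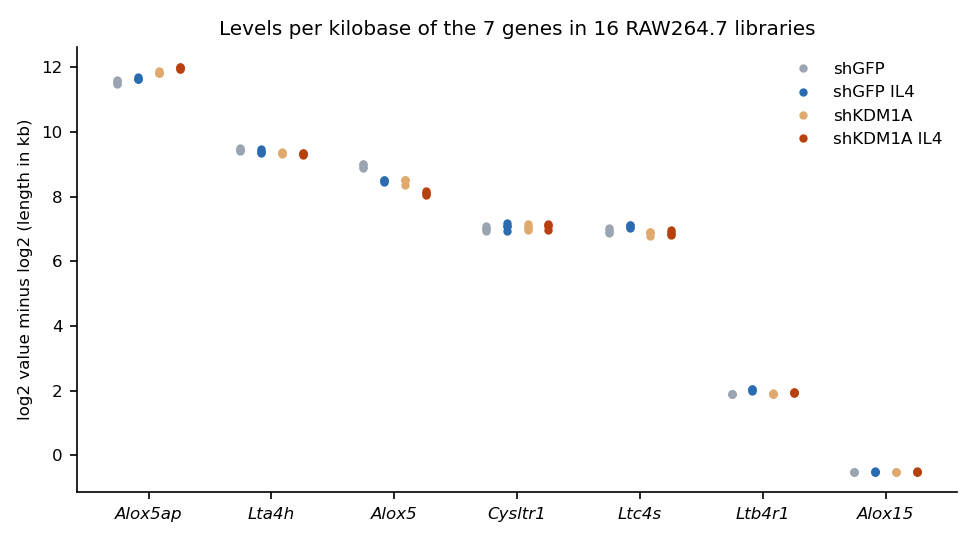
Log2 value minus log2 of the exonic length in kilobases (y axis) for the 7 genes (x axis), with 1 point per library and a colour per group. Alox5ap is highest in every library, Cysltr1 and Ltc4s lie close to 7, and Ltb4r1 and Alox15 lie near 2 and below 0.

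The members also differed in how much of their variation followed the groups. The group means of Alox5 spanned 0.84 log2 units, more than 98.2% of genes tested, and those of Alox5ap 0.44, more than 92.3%, where the median gene spanned 0.13. Ltc4s spanned 0.21, Lta4h 0.14, Ltb4r1 0.13 and Cysltr1 0.07. Within groups the pooled SD was between 0.021 (Ltb4r1) and 0.085 (Cysltr1), beside a median of 0.047 over all genes. Differences between groups made up 97.1% of the variance of Alox5 and 96.4% of that of Alox5ap, but 11.4% of that of Cysltr1. For Ltb4r1, Lta4h and Ltc4s the share was 89.0%, 74.0% and 71.6%, and the median over all genes was 58.6%.

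Over the 16 libraries, the genes whose pattern was most like that of Alox5 were Nfe2l2 (Pearson r = 0.980), which encodes the oxidative stress factor NRF2, Cd164 (0.973) and Bhlhe41 (0.972). Those most like Alox5ap were Csk (0.984), Cebpa (0.984), the gene of the myeloid factor C/EBP alpha, and Selplg (0.982), the ligand of P-selectin. Ltb4r1 was most like Tmem119 (0.961), Mrc1 (0.949), the mannose receptor and a known IL4 target, and Lig1 (0.926). For Lta4h these were Ahsa2, Cbr1 and Xrcc3 (0.912 to 0.902), for Ltc4s Nasp, Rp9 and Mdp1 (0.883 to 0.877) and for Cysltr1 Fryl, Phykpl and Mtcp1 (0.822 to 0.778). Between members, r was −0.88 for Alox5 and Alox5ap, 0.76 for Alox5 and Lta4h, and 0.72 for Ltc4s and Ltb4r1. The libraries fall into 4 groups, so these values describe mainly the 4 group means and carry no test.

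The remaining genes of the pathway were read from 7 fixed lists of 72 genes, of which 52 were tested and 20 failed the filter, 6 of them listed at 0 in every library. Of the 52, 21 were called for IL4 in shGFP cells (10 higher, 11 lower), 22 for IL4 in shKDM1A cells (12 higher, 10 lower), 26 for the hairpin without IL4 (14 higher, 12 lower) and 29 with IL4 (20 higher, 9 lower). Those are 40.4%, 42.3%, 50.0% and 55.8% of the pathway genes tested, beside 26.9%, 27.1%, 38.2% and 40.7% of all genes tested, and the median differences were −0.0073, 0.0073, −0.0031 and 0.03. The same shares of all genes are the background of the counts per list. With each replicate pair alone, the counts of the 52 were 17 to 24, 20 to 23, 22 to 26 and 25 to 29. The shares of pathway genes were 32.7% to 46.2%, 38.5% to 44.2%, 42.3% to 50.0% and 48.1% to 55.8%. For all genes the shares were 18.5% to 30.1%, 21.5% to 29.9%, 29.9% to 41% and 31.6% to 41.2%. The IL4 comparisons of the 2 lines share no library, and 16 pathway genes were called in both, all 16 in the same direction. The interaction was called for 8 of the 52 (7 higher, 1 lower), or 15.4% beside 6.13% of all genes, namely Pla2g4a, Daglb, Fads2, Mapkapk2, Mapk3, Gpx1 and Prdx1 (higher) and Abcc3 (lower). This count moved with the libraries. It was 4 (7.69%, beside 2.70% of all genes) with shKDM1A IL4 replicates 2 and 4 only, 15 (28.8%, beside 17.7%) with replicates 1 and 3 only, 3 (5.77%, beside 2.37%) with shGFP replicates 2 and 3 only and 8 (15.4%, beside 6.37%) with replicates 1 and 4 only. The interactions of Pla2g4a, Fads2 and Gpx1 were called in all 4 of these fits, and those of Daglb, Abcc3, Mapkapk2, Mapk3 and Prdx1 were not. The hairpin comparisons without and with IL4 share none either, and of 20 genes called in both, 19 had the same direction. For neither overlap was the share over all genes counted, and every comparison used 1 spread per gene from all 16 libraries.

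Of 10 tested genes of a list for arachidonate supply and reacylation, 6 fell and 1 rose with IL4 in shGFP cells, with a list median of −0.27, and 6 fell and 2 rose in shKDM1A cells, with a median of −0.24, where 26.9% and 27.1% of all genes were called. The 6 that fell in each line were Fads1, Fads2 and Elovl5, which make polyunsaturated fatty acids, and Acsl3, Acsl4 and Lpcat3, which activate fatty acids or return them to phospholipids. Fads2 and Fads1, the desaturases that form polyunsaturated fatty acids, fell in shGFP cells by 0.61 (SE 0.018) and 0.34 (SE 0.017), and Elovl5, the matching elongase, fell by 0.38 (SE 0.020), with adjusted p of at most 3.88e-10. With the hairpin 5 were higher and 1 lower without IL4, with a median of 0.03, and 6 higher and none lower with IL4, with a median of 0.10, where 38.2% and 40.7% of all genes were called. Elovl5 was higher by 0.50 (SE 0.020) and 0.42 (SE 0.020), Acsl4, which activates arachidonic acid for storage in phospholipids, by 0.25 (SE 0.035) and 0.27 (SE 0.035), Acsl3 by 0.14 (SE 0.024) without IL4, and Fads2 by 0.22 (SE 0.018) with IL4. Among 11 genes of arachidonate release and related lipases tested, 2 rose with IL4 in shGFP cells, Pla2g15 (0.30, SE 0.033) and Pla2g12a (0.20, SE 0.039), and 4 rose and none fell in shKDM1A cells. Pla2g4a, the cytosolic phospholipase A2 that feeds leukotriene synthesis, was lower with the hairpin without IL4 (−0.21, SE 0.022, adjusted p = 1.64e-06), in a set with 3 higher genes that included Dagla (0.31, SE 0.054) and Pnpla2 (0.28, SE 0.046). With IL4 the hairpin difference of Pla2g4a was 0.02 (SE 0.022, adjusted p = 0.583), and IL4 raised it by 0.24 (SE 0.022) in shKDM1A cells, with 0.01 (SE 0.022, adjusted p = 0.703) in shGFP cells. Its interaction was called (0.22, SE 0.032, adjusted p = 0.000596), also with either pair of shKDM1A IL4 or shGFP replicates alone (0.21 to 0.23). With IL4 the list had 5 higher and 2 lower genes, led by Pla2g12a (0.21, SE 0.039), Dagla (0.18, SE 0.054) and Pnpla2 (0.16, SE 0.046).

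Genes of proteins that bind or phosphorylate 5-lipoxygenase all passed the filter, and 3 of 7 were called for IL4 in shGFP cells (2 higher, 1 lower), again 3 in shKDM1A cells (2 higher, 1 lower), 4 for the hairpin without IL4 (2 higher, 2 lower) and 5 with IL4 (2 higher, 3 lower). Of all genes, 26.9%, 27.1%, 38.2% and 40.7% were called in these comparisons. Cotl1, the coactosin-like protein that binds 5-lipoxygenase, rose with IL4 in shGFP cells by 0.25 (SE 0.029) and was lower with the hairpin without IL4 (−0.65, SE 0.029, adjusted p = 2.69e-11) and with it (−0.54, SE 0.029, adjusted p = 2.67e-10). Mapkapk2, a kinase that phosphorylates 5-lipoxygenase, fell with IL4 by 0.52 (SE 0.021) in shGFP cells and was higher with the hairpin in the presence of IL4 by 0.22 (SE 0.021). Mapkapk3 rose with IL4 in shGFP cells by 0.08 (SE 0.017), from a low mean of 1.37. Of the MAP kinase genes, Mapk14 was lower with the hairpin without IL4 (−0.11, SE 0.022), and Mapk3 higher by 0.10 (SE 0.021) without and 0.25 (SE 0.021) with IL4.

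Among 11 tested genes of other leukotriene synthesis, breakdown and export, 5 were called for IL4 in shGFP cells (3 higher, 2 lower), 1 in shKDM1A cells (higher), 5 for the hairpin without IL4 (2 higher, 3 lower) and 4 with IL4 (2 higher, 2 lower). The largest was Abcc3, an organic anion exporter of the ABCC family, which rose with IL4 in shGFP cells by 0.73 (SE 0.044, adjusted p = 2.06e-09) and was lower with the hairpin (−0.22 without and −0.44 with IL4, SE 0.044 each). Abcc1 (MRP1), the exporter of leukotriene C4, was higher with the hairpin by 0.31 (SE 0.036) without and 0.19 (SE 0.036) with IL4. Mgst2 and Mgst3, microsomal glutathione transferases related to LTC4S, fell with IL4 in shGFP cells by 0.13 (SE 0.044, adjusted p = 0.0433) and 0.11 (SE 0.039, adjusted p = 0.0409), in the direction opposite to Ltc4s, and in shKDM1A cells their differences were 0.0072 (adjusted p = 0.937) and −0.03 (adjusted p = 0.594). Dpep2, a dipeptidase that converts leukotriene D4, was lower with the hairpin without IL4 (−0.15, SE 0.036), and Cyp4f18, which oxidises leukotriene B4, was lower with it in the presence of IL4 (−0.07, SE 0.019). Cyp4f18 was low, with a mean of 1.49 in shGFP cells, and rose there with IL4 by 0.06 (SE 0.019, adjusted p = 0.0229).

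Of 9 genes for other receptors, 3 were tested and 1, Gpr132, a receptor for oxidised fatty acids, was called, lower in all 4 comparisons. Gpr132 fell with IL4 in shGFP cells by 0.23 (SE 0.028, adjusted p = 8.01e-06), and was lower with the hairpin (−0.39 without and −0.26 with IL4, SE 0.028 each). Cysltr2 and Oxgr1, further receptors for cysteinyl leukotrienes, were listed at 0 in every library, and Ltb4r2, the second leukotriene B4 receptor, failed the filter. Gpr17, on the same list, passed it with a mean of 3.13 in shGFP cells and was called in none of the 4 comparisons. Of 9 tested genes for lipid peroxide reduction and epoxide hydrolysis, 3 were called for IL4 in shGFP cells (2 higher, 1 lower), 5 in shKDM1A cells (3 higher, 2 lower), 6 for the hairpin without IL4 (2 higher, 4 lower) and 6 with IL4 (5 higher, 1 lower). Gpx1, a glutathione peroxidase that reduces lipid hydroperoxides, rose with IL4 in shGFP cells by 0.52 (SE 0.026) and was higher with the hairpin in the presence of IL4 by 0.25 (SE 0.026), Aifm2 rose with IL4 in those cells by 0.30 (SE 0.034) and was higher with the hairpin by 0.21 and 0.22 (SE 0.034 each), and Prdx1 fell with IL4 in shGFP cells by 0.23 (SE 0.023). Slc7a11, the cystine transporter that feeds glutathione synthesis, was lower with the hairpin (−0.66 without and −0.75 with IL4, SE 0.041 each), and Ephx1 was lower without IL4 (−0.19, SE 0.045).

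**Figure D4:**
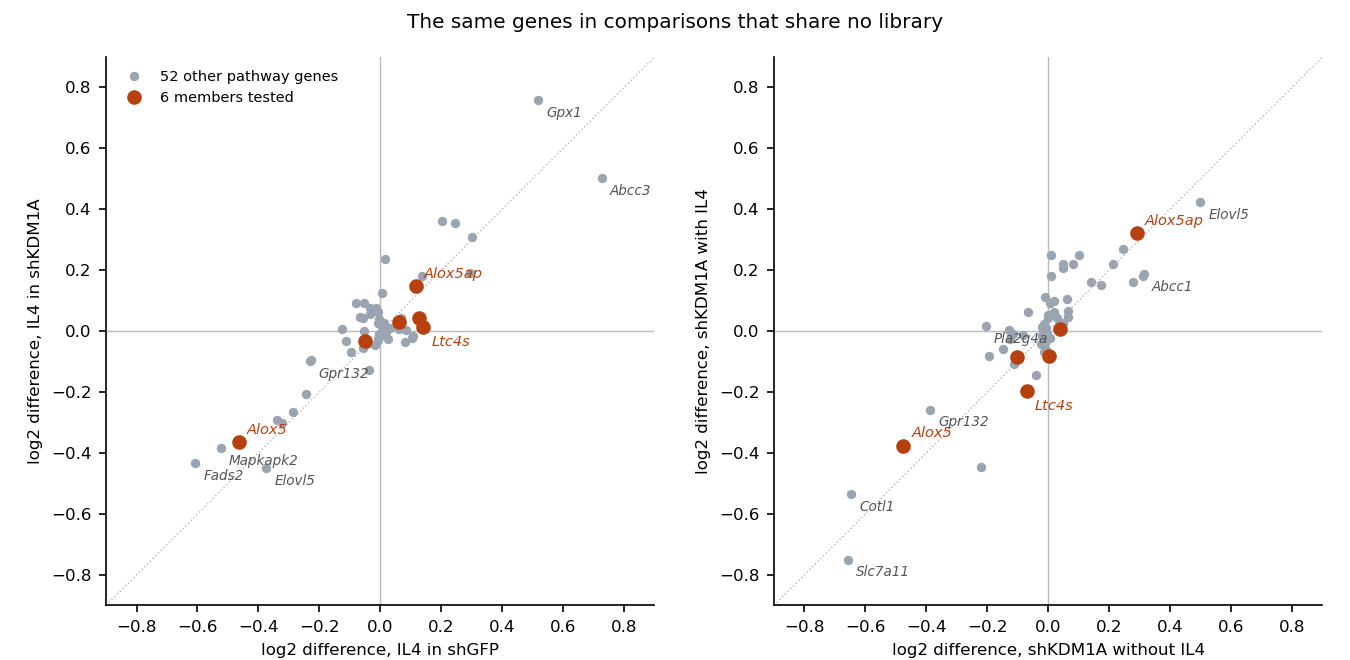
Log2 differences of the 6 members tested (orange) and the 52 other pathway genes (grey), for IL4 in shGFP (x axis) and shKDM1A (y axis) cells at the left, and for the hairpin without IL4 (x axis) and with IL4 (y axis) at the right. The dotted line marks equal differences; Alox5 lies in the lower left and Alox5ap in the upper right of both panels, and Lta4h, Cysltr1 and Ltb4r1 lie within 0.15 of 0 on all axes.

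Genes next to the members did not move as one with them. March8, which encodes a ubiquitin ligase and lies 527 bases from Alox5, fell with IL4 as Alox5 did, by 0.14 (SE 0.023) in shGFP and 0.18 (SE 0.023) in shKDM1A cells, but was higher with the hairpin by 0.12 (SE 0.023, adjusted p = 0.00064) without IL4 and by 0.08 (SE 0.023, adjusted p = 0.0126) with it, a call that was lost with shKDM1A IL4 replicates 2 and 4 only (adjusted p = 0.139). Mgat4b, 1357 bases from Ltc4s, fell with IL4 in shGFP cells by 0.15 (SE 0.025, adjusted p = 0.00029) and was higher with the hairpin in the presence of IL4 by 0.14 (SE 0.025, adjusted p = 0.000298), in both cases opposite to Ltc4s. The IL4 difference of Mgat4b in shKDM1A cells (−0.06, adjusted p = 0.102) was called with shKDM1A IL4 replicates 2 and 4 only (−0.10, adjusted p = 0.0216). Its interaction (0.09, adjusted p = 0.145) was called with shKDM1A IL4 replicates 1 and 3 only (0.13, adjusted p = 0.0217). Uspl1 beside Alox5ap, Hal beside Lta4h, Maml1 beside Ltc4s and Fndc3c1 beside Cysltr1 were called in none of the 4 comparisons, though Uspl1 passed the threshold for IL4 in shGFP cells with shGFP replicates 2 and 3 only (adjusted p = 0.0357). Pelp1 beside Alox15 rose with IL4 in shGFP cells by 0.10 (SE 0.021, adjusted p = 0.00148) and was called in none of the other three. Ltb4r2 and Adcy4, on either side of Ltb4r1, failed the filter, as did Olfr211, Medag, Mir7688 and Rtl3 beside the other members.

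The IL4 treatment itself was visible in the libraries. Of 12 tested genes from a list of 15 known IL4 targets, 11 rose in shGFP cells, with a median of 0.55, and 11 in shKDM1A cells, with a median of 0.47. Of all genes tested, 13.1% and 13.6% were called higher in these comparisons. Pparg was called in neither (0.04 in each, adjusted p = 0.448 and 0.328). Chil3 and Retnla were listed at 0 in every library, and Ccl24 failed the filter.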

How the data were processed

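The authors aligned the RNA-seq reads to mm9 (HISAT2 and Bowtie2 are named for the study), counted reads on exons of RefSeq genes with HOMER without separating strands, condensed them to 1 row per gene and ran DESeq2. For RAW cells the deposited table holds a log2 value per gene and library. The transformation is not named in its header, and decimals are written with commas. The values are not counts, so no count model was used and no pseudocount was added. The deposited BMDM table, and further columns of the RAW table, hold the authors' own fold changes with raw and adjusted p-values, which were not used.

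RAW libraries were grouped by their labels. Values were fitted with limma 3.58.1 in R 4.3.3 (1 mean per group, 16 libraries, eBayes) for genes reaching 1 in 4 or more libraries, and p-values were adjusted by Benjamini-Hochberg over 12905 genes per comparison. The steps were tested on simulated data. The study's methods state that biological replicates were used in its experiments, but the labels do not say that the 4 libraries of a group came from separate cultures, so p-values measure the spread between these libraries, which may be technical. Genes named from the pathway lists are, per list, up to 3 called genes with the largest absolute difference, for IL4 in shGFP cells and for each hairpin comparison. Lpcat3, Daglb and the genes listed for the pathway interaction were named after their values were seen. Alternatives changed the filter, the groups fitted, the scaling, the variance prior, array weights or a limit on the difference, added a replicate block, or left out libraries. The splits of the shKDM1A IL4 and shGFP groups were chosen after seeing the data. The members and lists were chosen with earlier results of these data known. ATAC-seq, ChIP-seq, CUT&Tag and 4C-seq were not analysed here.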

Additional observations from a re-analysis of the deposited data

Results flagged for a closer look

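In 28 groups of 4 libraries (7 genes in 4 groups), the gap between the most extreme library and its nearest neighbour, divided by the range of the group, was above Dixon's 95% limit in 2, where chance gives about 1 in 20. Alox5 was low in shKDM1A replicate 2 (9.85), and Alox5ap was high in shKDM1A replicate 1 (11.90). Neither library changed a call of its gene when it was left out.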

How the results depend on the processing

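The counts of members called were 4, 2, 3 and 5 for IL4 in shGFP, IL4 in shKDM1A, the hairpin without IL4 and the hairpin with IL4, and a further limit of 0.5 on the absolute log2 difference took each to 0. Over all genes that limit left 174 of 3466, 141 of 3497, 337 of 4927 and 319 of 5255 calls, and 17 of 791 for the interaction. When each library was left out in turn, the counts ranged from 3 to 5, 2 to 2, 3 to 3 and 4 to 5. The stricter filter removed Ltb4r1 from the genes tested. The interaction count was 0, and 1 (Ltb4r1) without a filter (adjusted p = 0.0354), with a trended variance prior (adjusted p = 0.0118) and without shGFP IL4 replicate 1, for a range of 0 to 1. The trended prior also added Ltb4r1 for IL4 in shKDM1A (adjusted p = 0.0287). Alox5 and Alox5ap kept their direction and their calls in the 4 comparisons under every alternative except the limit of 0.5, with Alox5 between −0.49 and −0.45 for IL4 in shGFP when single libraries were left out. Values that changed sign were near 0 and uncalled. With single libraries left out, they ranged from −0.012 to 0.036 for Ltc4s with IL4 in shKDM1A, from −0.00078 to 0.071 for Cysltr1 with IL4 in shKDM1A, from −0.038 to 0.048 for Cysltr1 with the hairpin and IL4, from −0.00047 to 0.0074 for Ltb4r1 with the hairpin without IL4, and for the interaction from −0.075 to 0.011 for Cysltr1 and from −0.0013 to 0.040 for Lta4h. With shKDM1A IL4 replicates 2 and 4 alone, Ltc4s with IL4 in shKDM1A was −0.037 and the Cysltr1 interaction 0.028, and with replicates 1 and 3 alone Cysltr1 was −0.028 with IL4 in shKDM1A and −0.051 with the hairpin and IL4. With shGFP replicates 2 and 3 alone, Cysltr1 was −0.0065 with the hairpin without IL4, and the interactions of Cysltr1 and Lta4h were 0.013 and −0.0054. Over all genes, the interaction had 348 calls with shKDM1A IL4 replicates 2 and 4, 2282 with replicates 1 and 3, and 306 with shGFP replicates 2 and 3. The cause was not tested.

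Replicate numbers did not pair the libraries: of 24 pairs with the same number, 3 had deviations correlated above 0.1 (range −0.343 to 0.273), and 7 of 16 libraries correlated best with their own number. With a replicate block, the counts were again 4, 2, 3, 5 and 0. Median centring and quantile normalization moved the median of all genes by at most 0.01 and changed no count of members. Ltb4r1 and Alox15 lie at levels where the deposited scale appears compressed, so the size of their differences is uncertain.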
